A study of Mus musculus with 93 samples.

Results

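The livers of wild-type (WT) mice given the synthetic PPARα agonist WY14643 were compared directly with those of WT mice given C22:6, without a control group in between. The comparison takes every array labelled WT with either treatment, 9 of the 93 arrays of the series: 4 with WY14643 and 5 with C22:6, each from 1 mouse. Expression was read on Affymetrix whole-genome arrays, of which 11412 probesets were compared. Male 129S1/SvImJ mice, fasted for 4 hours, received by gavage either 4 mg WY14643, as 400 µl of a suspension in carboxymethyl cellulose, or 400 µl of undiluted tridocosahexaenoin, the triglyceride of docosahexaenoic acid (C22:6), and the liver was taken 6 hours later. All of them had first eaten a diet in which olive oil replaced corn oil. The labels give an age of 12 to 20 weeks for the WY14643 mice and of 8 to 24 weeks for the C22:6 mice. The chemical, its amount, the vehicle and the labelled age therefore differ together between the groups and cannot be told apart. The same treatments in PPARα-/- mice (129S4/SvJae, 5 arrays each) served as a second contrast with the same differences in dose, vehicle and age. Shown as levels only are 3 WT control mice given the cellulose solution. Their labelled age of 12 to 20 weeks is that of the WY14643 mice and not that of the C22:6 mice. Also shown as levels only are 5 WT mice given fenofibrate, another agonist at 4 mg in the same vehicle as WY14643. Fenofibrate mice have the labelled age of the C22:6 mice.

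PPARα is a nuclear receptor of the hepatocyte that is activated by fatty acids and by drugs of the fibrate type. It binds DNA together with RXR at direct repeats spaced by a single base (DR1) and turns on genes of fatty acid uptake, peroxisomal and mitochondrial oxidation, lipid droplets and ketogenesis. A synthetic agonist reaches the receptor as a drug, whereas C22:6 arrives as a dietary fat that is also digested, transported, stored and oxidized, and polyunsaturated fatty acids are known to act on other regulators as well, SREBP-1c among them.

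Promoters are shown for genes on either side of the comparison that carry letters close to a DR1. In the 300 bases around the gene start (250 before it and 50 after it; RefSeq, GRCm38.p6), AGGTCANAGGTCA was searched on both strands with up to 2 mismatches over its 12 fixed letters. Such a match lay in 3.86% of all 32851 windows. Counted by gene, it lay in 4.4% of all genes with a window and in 4.22% of those tested here. Of the 110 genes named by rule, 93 had a window and 9 of these a match. Cd36 (fatty acid uptake) and Acot4 (a peroxisomal acyl-CoA thioesterase) were higher with WY14643, and Slc37a4 (the glucose-6-phosphate transporter) and Elovl1 (an elongase of very long chain fatty acids) were higher with C22:6. Each sequence runs 5′ to 3′ along the strand of its gene, and the capitals mark the match. The windows are chr5:17835847-17836146 on the minus strand for Cd36, chr12:84038129-84038428 on the plus strand for Acot4, chr9:44396696-44396995 on the plus strand for Slc37a4 and chr4:118429451-118429750 on the plus strand for Elovl1.
Cd36: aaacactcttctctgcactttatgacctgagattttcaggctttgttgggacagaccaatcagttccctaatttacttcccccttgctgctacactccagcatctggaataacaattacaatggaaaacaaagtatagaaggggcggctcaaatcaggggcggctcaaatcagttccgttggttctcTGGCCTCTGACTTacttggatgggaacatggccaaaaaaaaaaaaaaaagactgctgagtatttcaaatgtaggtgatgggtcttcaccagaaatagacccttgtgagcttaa
Acot4: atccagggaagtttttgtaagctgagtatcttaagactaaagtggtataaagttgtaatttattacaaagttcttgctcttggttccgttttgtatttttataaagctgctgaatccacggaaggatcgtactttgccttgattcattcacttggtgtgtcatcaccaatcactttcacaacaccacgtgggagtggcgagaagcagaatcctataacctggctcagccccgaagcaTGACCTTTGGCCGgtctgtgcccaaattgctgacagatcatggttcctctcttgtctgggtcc
Slc37a4: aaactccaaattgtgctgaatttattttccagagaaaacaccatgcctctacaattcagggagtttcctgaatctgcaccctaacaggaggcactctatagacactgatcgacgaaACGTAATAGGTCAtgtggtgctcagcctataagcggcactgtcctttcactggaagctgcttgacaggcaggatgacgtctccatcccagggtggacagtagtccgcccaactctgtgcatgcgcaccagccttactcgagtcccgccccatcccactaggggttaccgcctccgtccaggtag
Elovl1: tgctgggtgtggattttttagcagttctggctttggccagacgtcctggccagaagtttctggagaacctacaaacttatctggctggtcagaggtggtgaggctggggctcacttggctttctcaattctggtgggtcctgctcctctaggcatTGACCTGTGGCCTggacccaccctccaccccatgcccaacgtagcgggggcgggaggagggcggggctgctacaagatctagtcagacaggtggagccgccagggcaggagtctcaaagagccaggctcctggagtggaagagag
The match began 63 bases before the start of Cd36, 13 before that of Acot4, 134 before that of Slc37a4 (1 of its 3 windows) and 95 before that of Elovl1 (1 of its 2 windows). Elovl1 had 1 mismatch and the other genes 2. Among genes with a window, a match lay in 17 of 336 (5.06%) that were higher with WY14643, 11 of 343 (3.21%) that were higher with C22:6 and 203 of 4796 (4.23%) that were not called, so such letters stand in the promoters of all 3 classes.

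The labelled tissue was checked on marker genes. The 5 measured hepatocyte markers, albumin (Alb) and transthyretin (Ttr) among them, did not pass the test (0 at an unadjusted p under 0.05), and their summed signal was 46870 to 51940 with WY14643 and 46720 to 51840 with C22:6. None of 12 Kupffer cell markers passed in limma, though 4 had an unadjusted p under 0.05, all with WY14643 above. Over all genes 12.1% had such a p with WY14643 above and 27.8% in either direction. All 12 markers had a fitted difference above 0, with a median of 0.31 on the log2 scale against -0.04 over all genes. Their summed signal was 1293 to 2065 with WY14643 and 1145 to 1572 with C22:6. Marco, Cd68 and Timd4 lay under a log2 signal of 5 in both groups. Of 5 endothelial markers only Lyve1, dim in both groups, was called (with C22:6), and of 6 stellate cell markers only Lrat (with WY14643). No adipocyte, cholangiocyte or skeletal muscle marker was measured. In whole tissue, fewer cells of a type and less RNA per cell cannot be told apart. Median signals lay between 135.4 and 141.7. The first principal component (42.3% of the variance) set all WY14643 arrays (23.8 to 26.4) apart from all C22:6 arrays (-32.3 to -12.0), and the second (18.1%) set C22:6 replicate 5 (37.8) apart from the other C22:6 arrays (-14.6 to -5.86).

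The WT livers of the WY14643 group and of the C22:6 group differed in many genes, with about as many on either side. Among genes with a log2 signal above 5 on all 9 arrays, Pdk4, Enc1, Scyl2 and Cdkn1a were 4.09- to 15.9-fold higher with WY14643, and Cyp7a1, Got1, Cks2, Saa4 and Atp8b1 were 2.80- to 10.6-fold higher with C22:6. By limma at an adjusted p under 0.05, 740 probesets were higher with WY14643 and 622 with C22:6. On the level of genes, each read from its brightest probeset, 418 of 6661 (6.28%) were higher with WY14643 and 420 (6.31%) with C22:6, and 170 of these differed by at least 2-fold (83 and 87). At an unadjusted p under 0.05 the share was 27.8% of all genes, 12.1% with WY14643 above and 15.7% with C22:6 above, against which the unadjusted counts of gene lists are to be read. The arrays of the groups did not overlap in 502 genes (7.54%) with WY14643 above and in 530 (7.96%) with C22:6 above. No called gene had another probeset called the opposite way, and the median difference over all genes was -0.04 on the log2 scale. These counts depended on single arrays: without WY14643 replicate 2 they fell to 233 and 221 genes, without C22:6 replicate 5 they were 475 and 445, and no called probeset changed sign when an array was left out. The count higher with C22:6 also moved by over 1.5 times without WY14643 replicate 1 (249), WY14643 replicate 4 (273) or C22:6 replicate 3 (243), and that higher with WY14643 without WY14643 replicate 3 (278). Of the 105 named genes that were called, 65 were called in all 9 fits that left out 1 array.

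**Figure D1:**
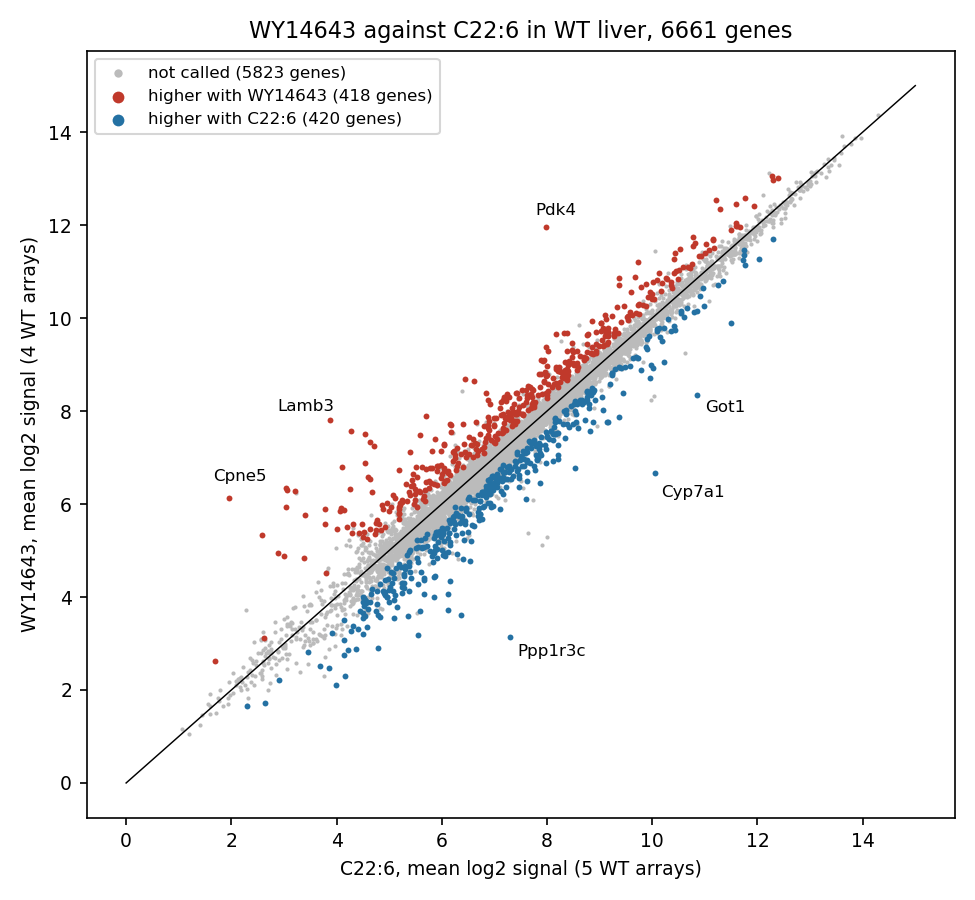
Mean log2 signal of 6661 genes in WT liver with WY14643 (vertical, 4 arrays) against C22:6 (horizontal, 5 arrays), with the line of equal level; 418 genes are coloured as higher with WY14643 and 420 as higher with C22:6 (limma, adjusted p under 0.05). Pdk4 lies farthest above the line among bright genes, and Cyp7a1, Got1 and Ppp1r3c lie far below it.

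The genes highest with WY14643 over C22:6 were led by Pdk4, the kinase that shuts the pyruvate dehydrogenase complex and so spares glucose. Its log2 signal was 11.84, 12.06, 11.94 and 12.02 in the WY14643 livers and 9.54, 8.09, 5.68, 7.86 and 8.70 in the C22:6 livers. The WY14643 livers lay close together while the C22:6 livers spread widely, and the groups did not overlap. The difference was 3.99 ± 0.62 (SE), or 15.9-fold, at an adjusted p of 0.00427. Controls read 2.89 to 4.26 and fenofibrate livers 9.24 to 10.97. Gadd45b, a growth arrest and DNA damage inducible gene, read 6.97, 7.92, 7.45 and 7.98 with WY14643 and 5.58, 3.72, 2.95, 5.46 and 3.68 with C22:6, a difference of 3.30 ± 0.53 (adjusted p = 0.00521). Only 2 of the C22:6 livers lay above a log2 signal of 5, under which a probeset counts here as dim. Krt23, a keratin, read 6.89, 7.24, 8.16 and 7.72 against 4.90, 5.01, 3.97, 3.82 and 5.06 (difference 2.95 ± 0.34, adjusted p = 0.0011), with 3 of its 5 C22:6 livers dim. A fitted difference that rests on dim arrays, as for Gadd45b and Krt23, is not an exact size. Scyl2, a coated vesicle protein, was tight in both groups: 7.93, 8.00, 7.60 and 8.04 against 5.59, 5.75, 5.25, 5.60 and 6.31 (difference 2.19 ± 0.19, adjusted p = 0.00037). Lamb3 (a laminin chain) and Id1 (an inhibitor of DNA binding) were dim in every C22:6 liver and thus at least 6.98-fold and at least 5.07-fold higher with WY14643. Cbfa2t3 (a corepressor), Lipg (endothelial lipase), Il1rn (the interleukin-1 receptor antagonist) and Synj2 were also higher without overlap, but 3 of 5 C22:6 livers were dim for Lipg and 4 of 5 for the other genes. Enc1, above the dim limit in every liver, was 4.79-fold higher. Cdkn1a, the cell cycle inhibitor p21, was 4.09-fold higher (adjusted p = 0.0195), but its adjusted p reached 0.061 when WY14643 replicate 2 or replicate 4 was left out.

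**Figure D2:**
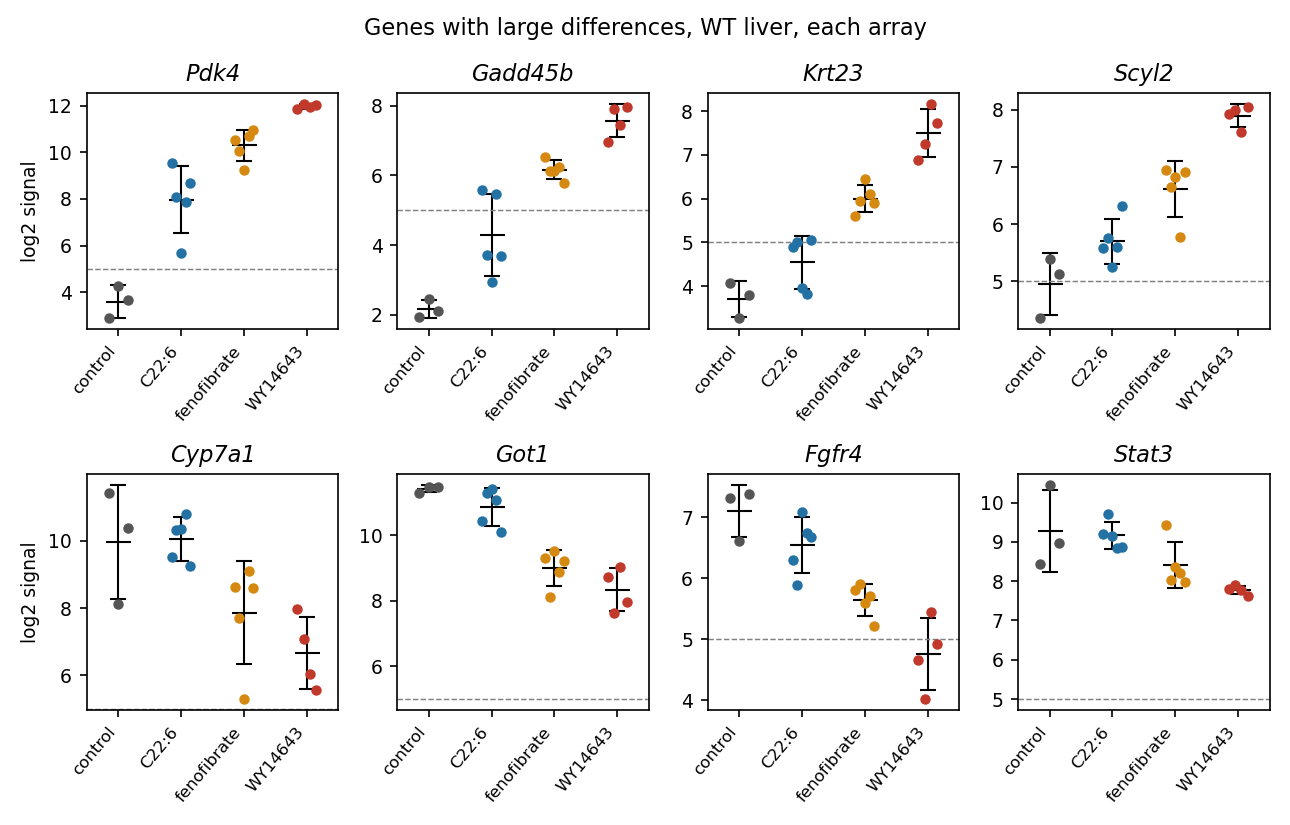
Log2 signal of 8 genes in each WT liver given the control solution (3), C22:6 (5), fenofibrate (5) or WY14643 (4); points are arrays, bars the mean and SD, and the dashed line a log2 signal of 5. In the upper row the 4 WY14643 livers lie above all C22:6 livers, and in the lower row below them.

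On the other side stood genes of bile acid synthesis, of which 26 were measured. In limma 6 were higher with C22:6 and none with WY14643, against 6.31% and 6.28% of all genes. At an unadjusted p under 0.05 in the same test these counts were 9 and 0, against 15.7% and 12.1% of all genes. The list median was -0.19. Cyp7a1, the rate-limiting enzyme of bile acid synthesis, read 9.53, 10.34, 10.36, 10.81 and 9.25 with C22:6 and 7.97, 7.07, 6.03 and 5.56 with WY14643. Every C22:6 liver lay above every WY14643 liver, and the controls at 8.12 to 11.42 spanned the C22:6 values. The difference was -3.40 ± 0.49 (10.6-fold, adjusted p = 0.00306), and a second probeset gave -4.25. Cyp8b1, the enzyme that makes cholic acid, read 10.20, 10.31, 9.76, 10.01 and 9.76 with C22:6 and 9.34, 8.60, 8.85 and 8.91 with WY14643 (difference -1.08 ± 0.17, adjusted p = 0.00453). Fgfr4, the hepatic receptor for the intestinal hormone FGF15, was higher with C22:6 (fitted 3.42-fold, with 3 of 4 WY14643 livers dim) and the organic anion transporter Slco1a4 2.65-fold higher. The differences of Nr1h4, which encodes the bile acid receptor FXR, and of the transporter Slco1a1 were smaller, -0.49 and -0.44. Nr1h4 lost its call without WY14643 replicate 1, 2 or 4 or C22:6 replicate 3 (adjusted p up to 0.063); the list held 5 to 9 called genes when 1 array was left out, 5 without WY14643 replicates 1, 2 or 4 or C22:6 replicate 3 and 9 without C22:6 replicate 5. Outside the list, Atp8b1, a flippase of the canalicular membrane, was 2.80-fold higher with C22:6.

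Amino acid breakdown leaned the same way, with called counts that stand beside 6.31% of all genes higher with C22:6 and 6.28% with WY14643. Of 44 measured genes 8 were higher with C22:6 and none with WY14643 (limma; 18 and 1 at an unadjusted p under 0.05, against 15.7% and 12.1% of all genes; list median -0.19). Got1, the cytosolic aspartate aminotransferase, read 10.43, 11.29, 11.40, 11.08 and 10.10 with C22:6, near the controls at 11.30 to 11.48, against 8.73, 7.64, 9.03 and 7.96 with WY14643. This was a difference of -2.52 ± 0.34, or 5.73-fold (adjusted p = 0.00259). Hal, which opens histidine breakdown, was 2.59-fold higher with C22:6, and Prodh, Gpt2, Nags, Asl and Agxt differed by -0.62 to -0.35. Of these 5 genes only Nags was called whichever array was left out (adjusted p up to 0.12 for the others). Bcat2 was called too, but was dim with WY14643 and near the dim limit with C22:6, so no size is given. Leaving out C22:6 replicate 3 left 4 of the calls, and WY14643 replicate 2 or 4 or C22:6 replicate 2 or 4 left 5.

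Of 27 genes of glucose handling 2 were higher with WY14643 and 3 with C22:6, against 6.28% and 6.31% of all genes. At an unadjusted p under 0.05 in limma these counts were 3 and 6, against 12.1% and 15.7% of all genes. Higher with WY14643 were Pdk4 and Ppp1r3g, a glycogen-targeting subunit of protein phosphatase 1. Ppp1r3c, another glycogen-targeting subunit of that phosphatase, read 6.98, 7.16, 8.16, 8.27 and 5.90 with C22:6 but was dim in every WY14643 liver (3.05, 3.5, 2.98 and 2.98), and so was at least 4.9-fold higher with C22:6 (adjusted p = 0.000719). Ppp1r3g went the other way, at 5.71, 6.32, 6.23 and 6.96 with WY14643 and 5.74, 1.98, 1.89, 3.56 and 2.12 with C22:6. C22:6 replicate 1 lay within the range of the WY14643 livers while the other 4 C22:6 livers were dim, and the call (adjusted p = 0.02) was lost without WY14643 replicate 2 or 4 (adjusted p up to 0.055). Slc37a4, whose promoter is printed above, read 9.80, 10.06, 10.38, 9.93 and 9.75 with C22:6 and 8.85, 9.13, 9.14 and 8.87 with WY14643, a difference of -0.99 ± 0.14 (adjusted p = 0.00291). Txnip, an inhibitor of thioredoxin that was picked by the study on these samples and so is no independent evidence, differed by -0.90 with overlapping groups (adjusted p = 0.0352), and 6 of the 9 fits without 1 array (WY14643 replicates 1, 2 and 4 and C22:6 replicates 1, 3 and 4) did not call it (adjusted p up to 0.1).

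The oxidation of fatty acids is the best known programme of PPARα. Here the called genes of oxidation were all higher with WY14643, most of them by a small margin. The counts of this paragraph stand beside 6.28% of all genes higher with WY14643 and 6.31% higher with C22:6. At an unadjusted p under 0.05 in limma these shares were 12.1% and 15.7%. In the mitochondrial list with the carnitine shuttle, 10 of 24 genes were higher with WY14643 and none with C22:6 (limma; 16 and 0 at an unadjusted p under 0.05), with a list median of 0.33. Pdk4 is 1 of the 10, and the others differed by only 0.38 to 0.97, among them the carnitine transporter Slc22a5 (0.97), Hadha (0.55) and Hadhb (0.51) of the trifunctional protein and the dehydrogenase Acadm (0.45). This count was 3 without WY14643 replicate 2, 5 without replicate 3 or 4, 6 without WY14643 replicate 1 or C22:6 replicate 1 or 2 and 12 without C22:6 replicate 5. Slc22a5 and Hadhb were each lost in most of these fits (adjusted p up to 0.11 and 0.12), whereas Hadha and Acadm were called in all 9. Of 17 genes of peroxisome biogenesis and membrane 9 were higher with WY14643, and 8 or 9 whichever array was left out. Pex11a, which drives peroxisome division, read 12.49, 12.42, 12.27 and 12.21 with WY14643 and 11.79, 11.51, 10.59, 11.34 and 11.18 with C22:6 (difference 1.07 ± 0.21, adjusted p = 0.011). The import factors Pex5, Pex14 and Pex19 differed by 0.76 to 0.78. Of 21 genes of peroxisomal oxidation 4 were higher with WY14643 (Crat, Acaa1a, Abcd3 and Hsd17b4) and none with C22:6 (limma; 7 and 2 at an unadjusted p under 0.05), 6 without C22:6 replicate 5, and Hsd17b4 was lost without WY14643 replicate 2 (adjusted p = 0.054). Crat, carnitine acetyltransferase, read 10.59, 10.82, 10.82 and 10.59 against 9.63, 9.53, 8.37, 9.49 and 9.86 (2.52-fold, adjusted p = 0.011), with the controls at 7.57 to 7.85. C22:6 replicate 3 was the lowest of its group for Crat, Acaa1a, Pex11a, Acot1, Acot4 and Pdk4.

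Ehhadh and Cyp4a14, which the paper calls PPARα targets, did not pass the test. Ehhadh, the peroxisomal bifunctional enzyme, read 13.10, 13.25, 13.07 and 13.10 with WY14643 and 12.45, 12.41, 11.27, 12.07 and 12.87 with C22:6 and fell just short of the threshold (difference 0.91 ± 0.26, adjusted p = 0.0508), though the groups did not overlap and the controls read 10.10 to 10.65. It was called when C22:6 replicate 3 or replicate 5 was left out. Cyp4a14, a fatty acid omega hydroxylase, read 12.81, 12.69, 12.29 and 12.82 against 12.55, 12.56, 11.09, 12.27 and 12.04, with a 95% interval of the difference of -0.07 to 1.18 (adjusted p = 0.246), far above the controls at 7.63 to 10.50. In omega oxidation only Aldh3a2 and Cyp4a31, of 11 genes, were called, both higher with WY14643, and neither without WY14643 replicate 3 or 4; Cyp4a31 shares sequence with its Cyp4a neighbours, so its reading is uncertain. The thioesterases Acot4, Acot1, Acot3 and Acot8, which free fatty acids from CoA, were 2.64-, 2.54-, 1.95- and 1.84-fold higher with WY14643, 4 of 12 genes of their list. Acot4 read 9.48, 9.34, 9.21 and 9.48 with WY14643 and 8.31, 8.02, 7.0, 8.13 and 8.41 with C22:6, above controls at 4.16 to 5.58, and was called whichever array was left out. The list count was 1 without WY14643 replicate 1 or 2 and 2 without WY14643 replicate 3 or 4. Of all genes 6.28% were higher with WY14643, against which the counts of thioesterases and of omega oxidation are to be read. Acot1, Acot3 and Acot4 are close relatives, and probesets may share signal between them. Lpin2, a phosphatidate phosphatase, and Ppara itself were not called, with 95% intervals of 0.04 to 0.80 and -0.16 to 0.35. The paper lists Lpin2 among the few genes that unsaturated fatty acids raised independently of PPARα.

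**Figure D3:**
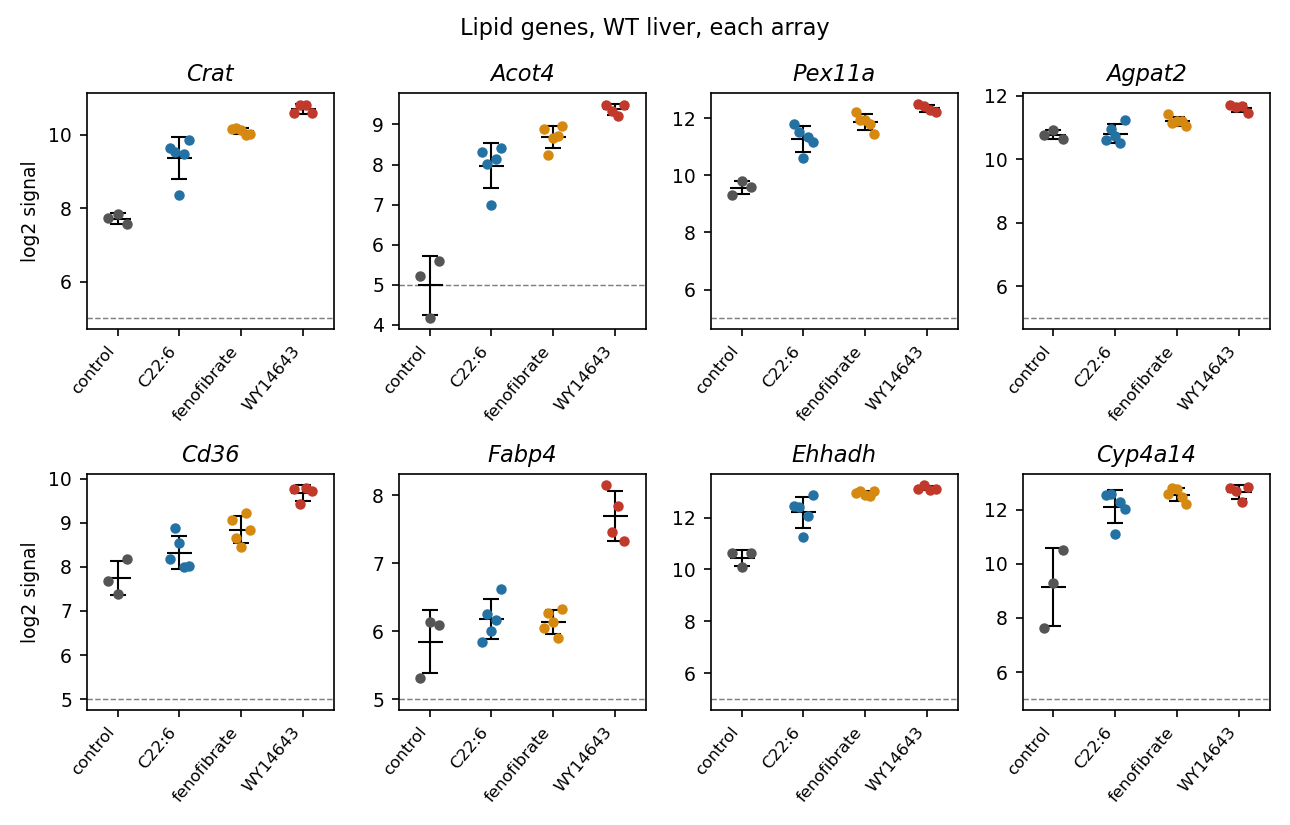
Log2 signal of 8 lipid genes in each WT liver given the control solution (3), C22:6 (5), fenofibrate (5) or WY14643 (4); points are arrays, bars the mean and SD, and the dashed line a log2 signal of 5. Crat, Acot4, Pex11a, Agpat2, Cd36 and Fabp4 were higher with WY14643 than with C22:6, while Ehhadh (adjusted p = 0.0508) and Cyp4a14 (adjusted p = 0.246) did not pass the test.

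Of 18 genes of fatty acid uptake, binding and activation, with a list median of 0.10, 5 were higher with WY14643. Another 2 (Gpihbp1 and Acsm1) were higher with C22:6. Over all genes 6.28% were higher with WY14643 and 6.31% with C22:6. Both Gpihbp1 and Acsm1 were lost without WY14643 replicate 1, 2 or 4 or C22:6 replicate 1, 2 or 3 (adjusted p up to 0.12). Cd36, the fatty acid translocase, read 9.77, 9.42, 9.79 and 9.73 with WY14643 and 8.17, 8.87, 8.54, 8.00 and 8.01 with C22:6 (difference 1.36 ± 0.18, 2.57-fold, adjusted p = 0.00252), and the controls read 7.39 to 8.17. Fabp4, a fatty acid binding protein best known from adipocytes and macrophages, read 8.15, 7.46, 7.85 and 7.33 against 5.84, 6.26, 6.00, 6.16 and 6.62 (2.87-fold, adjusted p = 0.00209). Its fenofibrate livers read 5.90 to 6.33, within the range of the C22:6 livers and overlapping the controls at 5.31 to 6.13. Cd36 and Fabp4 were picked by the study on these samples, so that their direction is no independent evidence; the Kupffer cell markers are given above, and their part in the Fabp4 difference was not tested. Vldlr, a lipoprotein receptor, was 3.31-fold higher with WY14643 (adjusted p = 0.0211, up to 0.057 without WY14643 replicate 1 or 3), and the transporter Slc27a4 differed by 0.72. Acsl3, an acyl-CoA synthetase, was called but lay near or under the dim limit in both groups.

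Of 16 genes of lipid droplets and lipolysis 7 were higher with WY14643: Hilpda, Fitm2, G0s2, Plin2, Plin5, Mgll and Lipa. The counts of this paragraph stand beside 6.28% of all genes higher with WY14643 and 6.31% higher with C22:6. Hilpda, a lipid droplet protein that inhibits lipolysis, was dim in all C22:6 livers and at least 1.7-fold higher, Fitm2, which helps droplets form, was 1.97-fold higher and G0s2, an inhibitor of adipose triglyceride lipase, 1.82-fold higher. Mgll and Lipa are lipases, which break lipids down. Plin3 alone was higher with C22:6, at 6.92, 6.93, 6.91, 6.29 and 6.79 against 5.21, 5.55, 6.17 and 5.75 (difference -1.10 ± 0.20, adjusted p = 0.00829). In triglyceride assembly 9 of 20 genes were higher with WY14643, most of them acyltransferases: Gpat4 (0.87), Agpat2 (0.81), Gpat3 (0.69), Gpam (0.53), Dgat1 (0.50) and Dgat2 (0.38). Agpat2 read 11.70, 11.64, 11.69 and 11.45 against 10.60, 10.97, 10.75, 10.50 and 11.24, with controls at 10.65 to 10.91 beside the C22:6 values. Only Gpd1l was higher with C22:6 in this list. The list count was 5 without WY14643 replicate 2 and 6 without WY14643 replicate 3 or 4 or C22:6 replicate 1 or 3. Dgat1 and Dgat2 were among the genes lost (adjusted p up to 0.094 and 0.1).

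**Figure D4:**
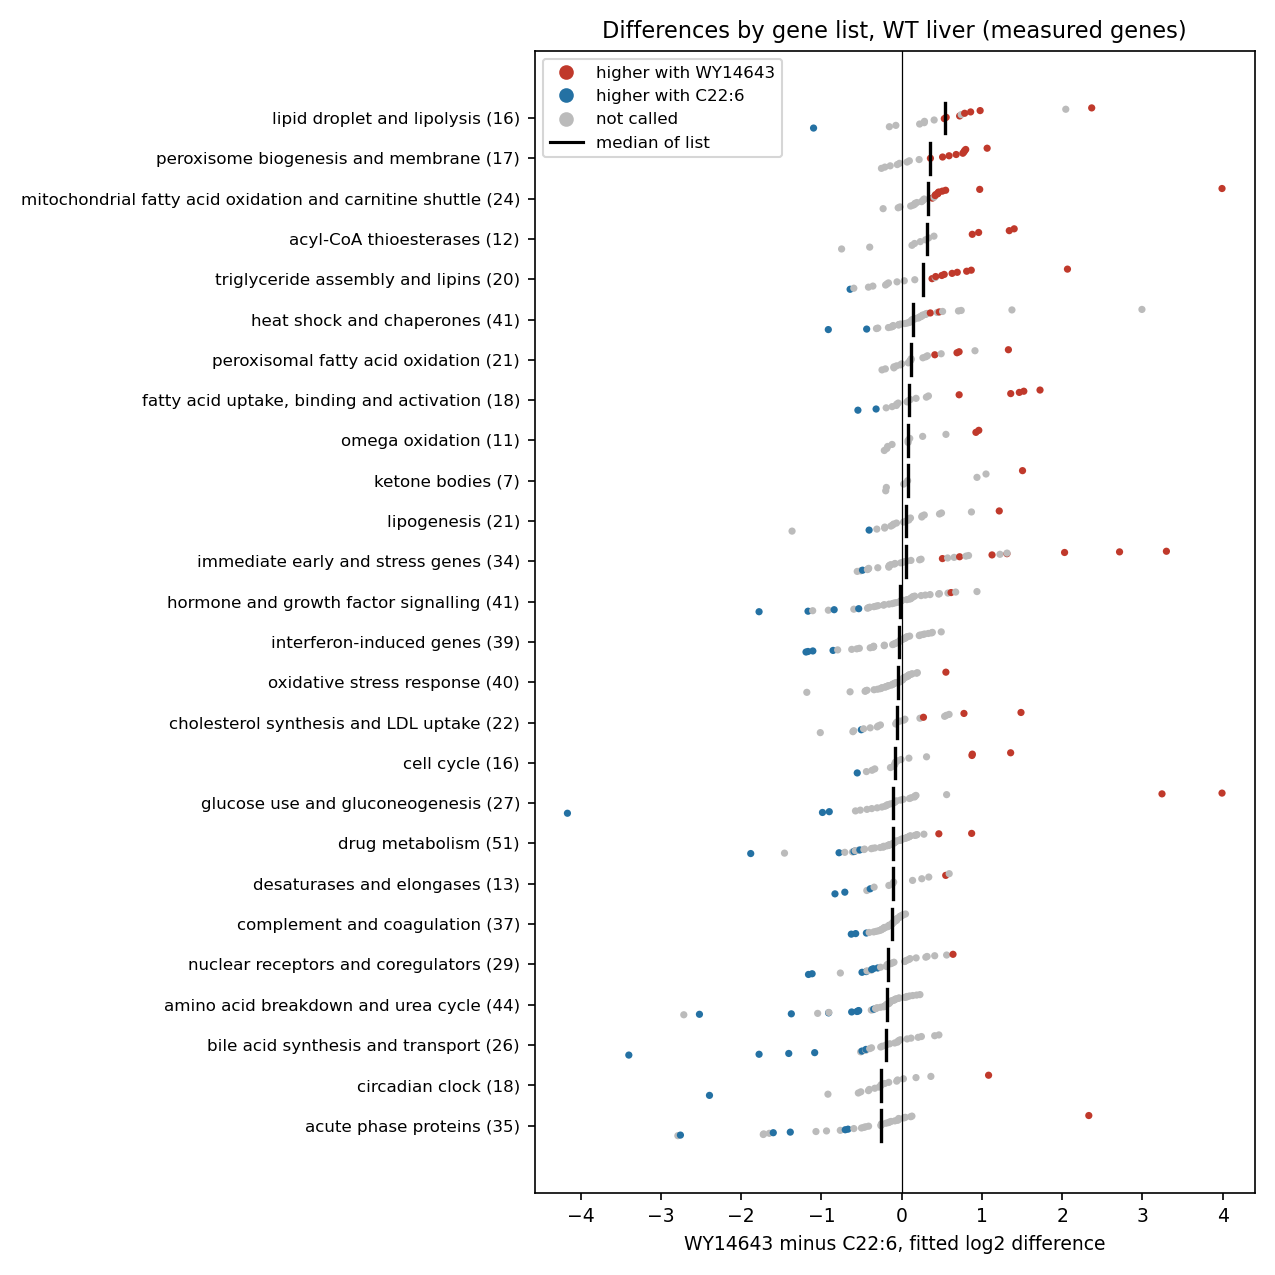
Fitted log2 difference between WY14643 and C22:6 in WT liver for the measured genes of 26 gene lists (number of genes in brackets), ordered by the list median (black bar); dim genes are plotted at their fitted value, which is no bound. Peroxisome, mitochondrial, lipid droplet and triglyceride assembly lists hold red points to the right, and bile acid, amino acid and acute phase lists hold blue points to the left.

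The counts of lipid synthesis genes stand beside 6.28% of all genes higher with WY14643 and 6.31% higher with C22:6. Hmgcs1, the cytosolic synthase at the entry of cholesterol synthesis, read 9.61, 9.49, 10.09 and 9.43 with WY14643 and 8.24, 8.24, 8.10, 8.24 and 8.00 with C22:6 (2.81-fold, adjusted p = 0.00049). Hsd17b7, a later enzyme of that pathway, was 1.71-fold higher, and of 22 genes of cholesterol handling 3 in all were higher with WY14643 and 1 (Abcg5) with C22:6. The third of them, Abca1, was called in 0 and Abcg5 in 2 of the 9 fits without 1 array. Slc16a1, the monocarboxylate transporter that carries ketone bodies and lactate, was 2.84-fold higher with WY14643 (adjusted p = 0.00162) and the only 1 of 7 ketone body genes called. Srebf1, which encodes the lipogenic factor SREBP-1, read 8.58, 9.33, 9.44 and 9.01 with WY14643 and 7.27, 7.63, 9.13, 7.86 and 7.50 with C22:6. The groups overlapped through C22:6 replicate 3, the controls read 8.49 to 10.11, and the difference of 1.22 ± 0.35 just passed (adjusted p = 0.0491). It was called in 1 of the 9 fits without 1 array, that without C22:6 replicate 3 (adjusted p up to 0.13 in the others). Apart from Srebf1, only Mlx (-0.40, adjusted p = 0.024) was called among 21 lipogenic genes; it was called in 5 of these 9 fits.

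Regulators and genes of the acute phase list were called mostly with C22:6 above, and immediate early genes mostly with WY14643 above. Their counts stand beside 6.31% of all genes higher with C22:6 and 6.28% higher with WY14643. At an unadjusted p under 0.05 in limma, 9 receptor genes had C22:6 above and 4 WY14643 above. For the acute phase list these counts were 16 and 1, and for immediate early genes 4 and 10, against 15.7% and 12.1% of all genes. Of 29 nuclear receptors and coregulators 7 were higher with C22:6 and 1, the corepressor Nrip1, with WY14643 (called in 3 of the 9 fits without 1 array). Ahr, the receptor for dioxin, read 8.20, 8.18, 8.24, 8.42 and 8.01 with C22:6, near the controls at 8.27 to 8.65, and 6.85, 7.13, 7.01 and 7.23 with WY14643 (2.23-fold, adjusted p = 0.000524). Rxra, the partner of PPARα, differed by -0.44 ± 0.10 (adjusted p = 0.0198, 0.055 without WY14643 replicate 1). Nr1i3, the receptor CAR, was not called (95% interval -0.26 to 0.34). The receptor list held 2 calls without WY14643 replicate 1 or C22:6 replicate 3, 3 without WY14643 replicate 2 or 3 and 4 without WY14643 replicate 4 or C22:6 replicate 2 or 4. Of 35 genes of the acute phase list 5 were higher with C22:6 (Lcn2, Saa4, Stat3, Crp and Serpina3n) and 1, Il1rn, with WY14643. Whichever array was left out, 4 to 6 were on the side of C22:6. Saa4 encodes a constitutive serum amyloid A and is itself no acute phase reactant. Stat3, the transcription factor of the acute phase response, read 9.21, 9.72, 9.16, 8.85 and 8.87 with C22:6 and 7.80, 7.90, 7.77 and 7.63 with WY14643 (2.62-fold, adjusted p = 0.0015). Lcn2, an acute phase protein, was dim in all WY14643 livers, but in the C22:6 livers it read 4.42, 8.02, 7.44, 4.62 and 7.35 and in the controls 3.91, 11.69 and 8.11, and its call was lost in 7 of the 9 fits, all but those without C22:6 replicate 1 or 4 (adjusted p up to 0.093). Of 34 immediate early and stress genes 7 were higher with WY14643 and 1 with C22:6; beside Gadd45b, Id1 and Cdkn1a these were Jun (2.48-fold), Klf10 (1.13 on the log2 scale), Btg1 (0.51) and Ccn1, which was dim in both groups.

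The same contrast in PPARα-/- mice, which shares no array with that in WT, asks how these differences depend on the genotype. The substrain differs together with the receptor, so that loss of PPARα and substrain cannot be told apart here. Ppara read 11.19 and 11.10 on average in the WT groups and 10.01 and 9.85 in the PPARα-/- groups with WY14643 and C22:6; whether its probesets lie in the deleted part was not examined, so this does not check the labels. Cyp4a14 averaged 12.65 and 12.10 in WT but 2.2 and 2.4 in PPARα-/- livers. In the fit of the 10 PPARα-/- arrays limma called 0 of 6661 genes (0%), with 796 genes at an unadjusted p under 0.05 (12%; 333 by chance) and a lowest adjusted p of 0.0567. This 0 does not show that the treatments act alike without PPARα: in fits that share the spread with 56 or 83 arrays, 579 and 571 probesets were called. Tested directly, the contrast differed between the genotypes in 359 genes (5.39%) or 563 probesets, and 279 of the 838 genes called in WT were among them. The WT difference is part of this test, so genes called in WT pass it more easily, and nothing is read from that overlap. With 1 array left out, the test between genotypes called 329 (without WT C22:6 replicate 3) to 844 probesets (without PPARα-/- C22:6 replicate 4). The count was also over 1.5 times lower without WT WY14643 replicate 1 (362), 2 (335) or 3 (372) and without PPARα-/- WY14643 replicate 2 (355) or 4 (370). Pdk4 averaged 6.12 with WY14643 and 6.85 with C22:6 in PPARα-/- livers, a difference of -0.73 ± 0.55, and its contrast differed between the genotypes by 4.72 (adjusted p = 0.00664). Cyp7a1 averaged 10.11 and 8.81 there (difference 1.31 ± 0.71), and its contrast differed by -4.71 (adjusted p = 0.00924). For Acot4, Crat and Cd36 the differences in PPARα-/- livers were -0.72, -1.05 and -0.55, with contrasts that differed from WT by 2.12, 2.38 and 1.92 (adjusted p = 0.00354, 0.00354 and 0.00411). Got1, Cyp8b1, Slc37a4, Hmgcs1, Slc16a1, Ahr and Rxra had called differences between the genotypes too. For Srebf1 the difference was 1.12 ± 0.39 without PPARα (adjusted p = 0.376) and 1.22 ± 0.35 with it, and the difference between these was 0.09 (adjusted p = 0.95). For Retsat, a retinol saturase, the fitted difference was 0.62 in both genotypes, called in WT (adjusted p = 0.0219) but not in PPARα-/- livers (adjusted p = 0.39). Stat3, Plin3, Pex11a, Hsd17b7, Elovl1 and Cdkn1a were called in WT, yet their contrasts were not called as different between the genotypes (adjusted p from 0.154 to 0.644).

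**Figure D5:**
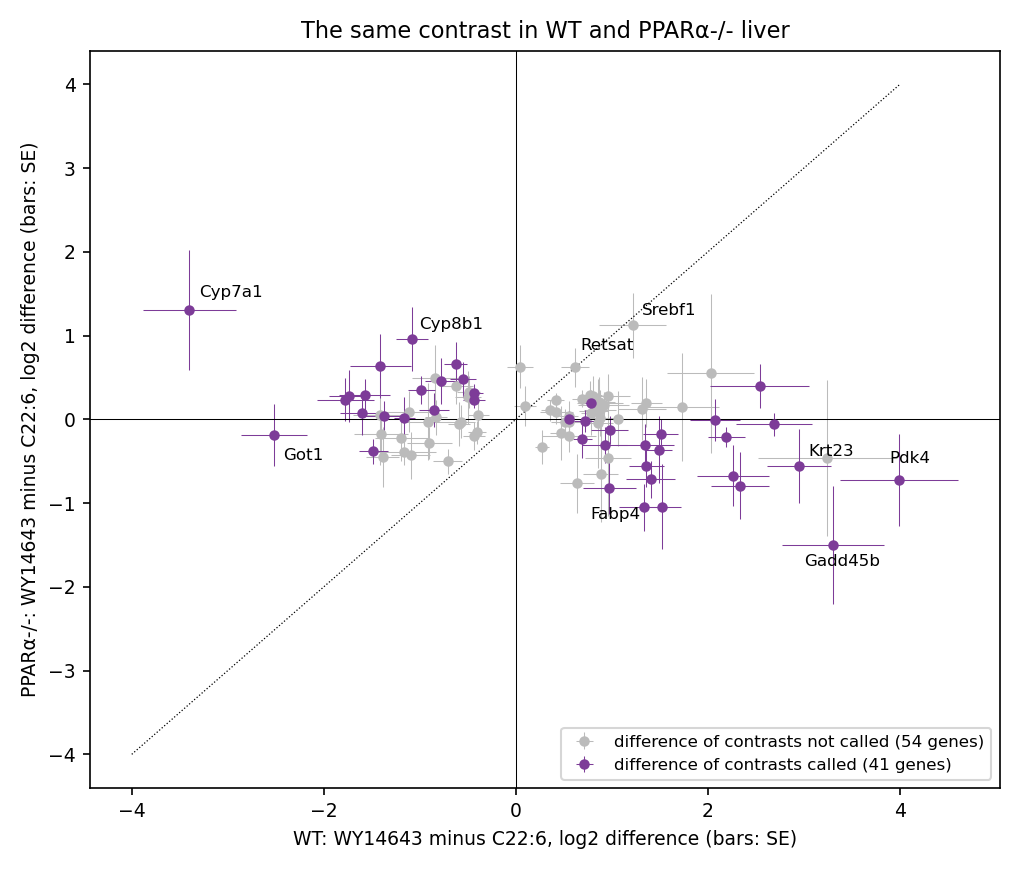
Log2 difference between WY14643 and C22:6 in WT (horizontal) and PPARα-/- liver (vertical), with SE bars, for the 95 named genes that were not dim in a WT group; the dotted line marks equal differences, and 41 genes whose contrasts differed by limma's interaction test are purple. Purple genes such as Pdk4 and Cyp7a1 lie far from the dotted line and Srebf1 lies close to it. Some genes, Cbfa2t3 and Cyp4a31 among them, were dim on every PPARα-/- array, so their vertical positions are no exact sizes.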

How the data were processed

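Gene expression was measured in livers of single mice on Affymetrix whole-genome mouse arrays. The deposited values are probeset intensities on the linear scale, made by the authors with GC-RMA (GCRMA 2.20 per the submitters' processing notes), who had already removed probesets with a small interquartile range over the samples; array normalization and filtering limit how absolute levels and low signals can be read. Of the 11463 rows 51 belong to array controls and were dropped, and log2 of the intensities was taken. The platform annotation gave 1 symbol to 10279 probesets, several to 406 and none to 727. A gene was read from its single-symbol probeset with the highest mean over the 9 arrays.

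WY14643 and C22:6 were compared with limma 3.58.1 (R 4.3.3; moderated test, no trend, two-sided), fitting the 9 WT arrays only, with Benjamini-Hochberg adjustment over 11412 probesets and an adjusted p under 0.05 as the call. The 10 PPARα-/- arrays were fitted likewise, and the difference between genotypes as an interaction over 19 arrays. Errors are SE, and intervals 95%. A probeset under a log2 signal of 5 on every array of a group gives only a bound there. The fits were tested on simulated data. Precision is limited by how many arrays a group has. The labels call the arrays biological replicates.

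Named are the 12 largest non-overlapping differences each way, up to 4 called genes per gene list, genes the paper names and the 6 largest differences between genotypes. Other called genes of a list were named after their values were seen. Cpt1b and Prlr, which the paper marks in its plot of WY14643 and C22:6, are missing because no probeset carried either as its only symbol. Probesets with several symbols or none were not searched for them. The comparison, the 26 gene lists and the markers were chosen with earlier results of these data known. Alternatives were wider fits, a replicate block, filters, normalizations, variance models, thresholds and leaving out each array. Figures were drawn with matplotlib 3.10.9.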

Additional observations from a re-analysis of the deposited data

Results flagged for a closer look

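Single arrays stood apart in 17 of 228 tests, where chance gives about 1 in 20. C22:6 replicate 5 lay apart on the second principal component (37.82), had the lowest mean correlation with its own group (0.97) and the largest median absolute deviation from the group mean (0.19 on the log2 scale). It was also highest for Synj2 (5.07) and, under a log2 signal of 5, for Mogat1 (3.40) and Cpne5 (2.88). C22:6 replicate 3 was lowest for the fatty acid genes Acot4 (7.0), Acot1 (10.05), Crat (8.37) and Acaa1a (7.81), and C22:6 replicate 4 for Plin3 (6.29). Among the WY14643 livers, replicate 2 deviated least from the group mean (0.09), was lowest for Cd36 (9.42) and highest for Ehhadh (13.25) and Ppp1r3c (3.5, dim); replicate 1 was lowest for Fkbp5 (6.98) and replicate 3 highest for Hsd17b12 (10.47).

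The difference between WY14643 and C22:6 itself differed between WT and PPARα-/- livers for 51 of the 110 named genes (limma interaction, adjusted p under 0.05), against 5.39% of all genes. The named genes were chosen in part for large differences in WT and between genotypes, which raises their count, so nothing is read from it. Of these, 18 were dim on every array of at least 1 of the 4 groups and get no value. Some of the remaining genes had dim arrays too, so that their values are not exact sizes. In WT, 4 of 5 C22:6 livers were dim for Il1rn. Of the WT WY14643 livers, 3 of 4 were dim for Fgfr4, Trim14 and Mast3 and 2 of 4 for Cyp2r1. For the other 33, the WT difference minus the PPARα-/- difference on the log2 scale was above 0 for Pdk4 (4.72), Il1rn (3.12), Fabp4 (2.56), Crat (2.38), Acot4 (2.12), Cd36 (1.92), Hmgcs1 (1.85), Slc22a5 (1.79), Slc16a1 (1.68), Acot1 (1.65), Fitm2 (1.11), Gpat3 (0.93), Acaa1a (0.74), Pex14 (0.59) and Hadha (0.54). It was below 0 for Cyp7a1 (-4.71), Got1 (-2.33), Mast3 (-2.05), Cyp8b1 (-2.04), Cks2 (-2.02), Fgfr4 (-2.01), Trim14 (-1.87), Saa4 (-1.67), Hal (-1.41), Slc37a4 (-1.34), Klkb1 (-1.28), Cyp2r1 (-1.23), Ahr (-1.18), Atp8b1 (-1.11), Rbl2 (-1.03), Irf2 (-0.96), Rxra (-0.76) and Serpinf2 (-0.66).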

How the results depend on the processing

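The direction of every named gene that was called held in all alternatives, and no result reversed. Of the comparisons for single named genes, 795 kept their side of the threshold when 1 array was left out, 193 lost the call and 2 gained it; under the other settings 916 kept it, 60 lost it and 7 gained it. In WT mice the probesets higher with WY14643 numbered 416 to 843 when 1 array was left out and those higher with C22:6 325 to 708, with 233 to 475 and 221 to 445 genes; 609 probesets (44.7%) were called in all of these fits. A fold of at least 1.5 in addition left 461 and 376 probesets and 249 and 251 genes, and array weights called 955 probesets as higher with C22:6. In PPARα-/- mice the count of 0 stayed at 0 to 0 without any 1 array, but was 579 and 571 in fits with 56 and 83 arrays, 1 with a filter on low signal, 1 with an intensity trend, 2 with array weights and 317 at an unadjusted p under 0.01. The difference between genotypes gave 329 to 844 probesets without 1 array, 1140 and 1148 in the wider fits, 1141 with array weights and 1098 at an unadjusted p under 0.01. The causes were not tested. Nothing says that equal replicate numbers pair the mice. Deviations of same-numbered arrays from their group means correlated at 0.013 to 0.16 in WT and -0.086 to 0.25 in PPARα-/- mice. With the replicate block 700 and 603 probesets (389 and 368 genes) were called in WT, 0 in PPARα-/- mice and 875 for the difference between genotypes. Signals near a log2 of 5 limit what can be said of dim genes.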

Other observations

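The counts of the following gene groups stand beside 6.28% of all genes higher with WY14643 and 6.31% higher with C22:6. Of 51 genes of drug metabolism 5 were higher with C22:6 and 2 with WY14643. Fmo2, a flavin monooxygenase, read 5.46, 5.97, 5.44, 6.40 and 4.68 with C22:6 and was dim in all WY14643 livers (3.10, 3.71, 4.20 and 3.83) and in the controls (3.91, 2.98 and 3.24), and so was at least 1.5-fold higher with C22:6 than with WY14643 (adjusted p = 0.00712). Ugt3a1, a glycosyltransferase, was 1.83-fold higher with WY14643. In the circadian clock list Nfil3, a repressor with a daily rhythm, was at least 2.16-fold higher with C22:6 and Nr1d1, which encodes REV-ERBα, at least 1.49-fold higher with WY14643, the only called genes of 18.

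Of 39 interferon-induced genes 4 were called, all with C22:6 above: Irgm1, an immunity GTPase (2.28-fold), Irf2, a transcription factor (1.81-fold), and Ifi47 and Tap1, both near the dim limit. Leaving out WY14643 replicate 4 left 1 of the 4 calls, and WY14643 replicate 1 or C22:6 replicate 3 left 2. Of 37 genes of complement and coagulation 3 (Klkb1, C6 and Serpinf2) were higher with C22:6, by 0.44 to 0.63 in size on the log2 scale. Of 40 oxidative stress genes only the regulator Nfe2l2 was called (1.47-fold higher with WY14643, called in only 2 of the 9 fits without 1 array). Desaturases and elongases gave 3 calls with C22:6 above (Fads6, Elovl1 and Elovl2) and 1, Hsd17b12, with WY14643 above, of 13 genes. Of 16 genes in the cell cycle list, Ccng2 (2.56-fold), Ccnd1 and Cdk2 (both fitted 1.84-fold) were higher with WY14643. The pocket protein gene Rbl2 was 1.47-fold higher with C22:6. Other probesets of Ccnd1 were not called. For Cdk2, 4 of 5 C22:6 livers were dim, so its fold is not an exact size.

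Of 41 hormone and growth factor genes 4 were higher with C22:6 and 1, Retsat, with WY14643. Beside Fgfr4 the former were the growth factor receptor gene Egfr (2.24-fold), the estrogen receptor gene Esr1 (1.79-fold) and Igf1 (1.45-fold). Egfr and Esr1 were each called in 2 and Igf1 in 3 of the 9 fits without 1 array. Of 41 heat shock and chaperone genes Hspd1 and Dnajb9 were higher with WY14643 and Fkbp5 and Xbp1 with C22:6, by 1.28- to 1.88-fold, and none of these 4 was called in more than 3 of those fits.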
